A study of Rattus rattus with 6 samples.

Results

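Atp2a2 and Ryr2 encode the pump and the release channel of the sarcoplasmic reticulum, the calcium store of the heart muscle cell, and their RNA levels were compared between young and old rat left ventricle. Each was taken as 1 row of the table by its Ensembl identifier, ENSRNOG00000001285 for Atp2a2 and ENSRNOG00000017060 for Ryr2, so they are 2 of 23976 genes. Both were listed above 0 in every library and both passed the filter on low values. The pairing of these identifiers with the symbols was given with the choice of the genes. The table holds identifiers alone, and none of them (0 of 23976) was found in the RefSeq gene table at hand, so neither symbol could be checked and no other symbol was given.

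The animals were untreated male Wistar-Kyoto rats of wild type genotype, an inbred strain used as the normotensive partner of the spontaneously hypertensive rat. Young adults were sampled at 3 months and old adults at 24 months of age, and 3 libraries were made per age. Ribosomal RNA was removed from total RNA of the left ventricle before sequencing. The table gives TPM, an abundance that corrects for transcript length and has the same total in every library, so levels of 2 genes can be set against each other. The labels give each sample an individual number, and the permutation p-values below measure the spread between these libraries. The p-values of limma, a test across all genes, also draw on a spread shared across genes. In such tissue RNA, fewer cells of a type and less RNA per cell cannot be told apart.

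Contraction of the ventricle starts when calcium that enters the muscle cell opens the ryanodine receptor RyR2, the product of Ryr2, and calcium leaves the sarcoplasmic reticulum. Relaxation follows as SERCA2, the calcium ATPase encoded by Atp2a2, pumps calcium back into the store. The pump is restrained by phospholamban, and the channel sits in a complex with calsequestrin, triadin and junctin. Both proteins are long known as defining parts of excitation-contraction coupling in the heart. The regulators and the other calcium channels, exchangers and pumps of a list of 32 genes could not be followed, since 0 of them could be matched to an identifier, and the same holds for markers of muscle, vessel and connective tissue cells.

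Every library summed to 1000000 TPM, and the number of reads behind a value is unknown. Most of each sum was taken up by 15 genes whose mean was 1000 TPM or more. The other genes, among them Atp2a2 and Ryr2, held 6.39%, 10.6% and 10.5% of TPM in young replicates 1, 2 and 3, and 5.84%, 6.05% and 5.08% in the old libraries OH1, OH2 and OH5. Young replicate 1 thus stood apart from the other young libraries on this share. Levels are therefore given as deposited and again after these 15 genes were left out and the rest brought to 1000000 per library, called rescaled TPM. A suffix in the column names, which the labels do not explain, was _1 for young replicates 1 and 3 and OH1, and _2 for young replicate 2, OH2 and OH5. Within a suffix 1 age therefore rests on 1 library, OH1 in _1 and young replicate 2 in _2, with no measure of its spread.

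Atp2a2, the pump gene, was lower in every old library than in any young library on the deposited scale. It stood at 73.2, 67.9 and 70.7 TPM in young replicates 1, 2 and 3. In the old libraries it stood at 34.2 TPM in OH1, 38.3 TPM in OH2 and 33.0 TPM in OH5. The groups were far apart, and the values of each group lay close together. The mean was 70.6 ± 2.63 TPM at 3 months and 35.2 ± 2.81 TPM at 24 months (SD, n = 3), a level 2.01-fold higher in young. Over the 9 pairs of 1 old and 1 young library, old was 0.451 to 0.564 of young.

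The exact two-sided permutation test on the Atp2a2 levels reached p = 0.1, which is the lowest p possible for 3 libraries against 3. In limma's test across 9502 genes on log2(TPM + 1), Atp2a2 fell by 0.99 ± 0.34 (SE) on the log2 scale, with a Benjamini-Hochberg adjusted p of 0.021. That SE rests mostly on a spread shared across genes (prior degrees of freedom 91.8), since the SD of Atp2a2 itself on this scale was 0.053 in young and 0.11 in old. The call was lost in 5 of 6 fits that left out 1 library, with limma adjusted p values of 0.000518 (without young replicate 1) to 0.128 (without OH5) over the 6. It was also lost when the suffix entered the model beside age (limma adjusted p 0.0711, log2 fold change -0.98). Within suffix _1 the mean was 72.0 TPM in young and 34.2 TPM in old, and within suffix _2 it was 67.9 and 35.7 TPM.

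Ryr2, the release channel gene, was also lower in every old library, with a wider spread inside each age. Its young values were 76.8, 42.0 and 67.3 TPM in replicates 1, 2 and 3. Its old values were 21.7 TPM in OH1, 23.3 TPM in OH2 and 31.5 TPM in OH5. Young replicate 2 was the low library of its group and OH5 the high one of the old group, and OH5 minus young replicate 2 was -10.5 TPM, the smallest gap of any pair of libraries. The mean was 62.0 ± 18.0 TPM at 3 months and 25.5 ± 5.24 TPM at 24 months (SD, n = 3), 2.43-fold higher in young. Over the 9 pairs of libraries old was 0.283 to 0.75 of young.

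For the Ryr2 levels the exact two-sided permutation p was again 0.1. Ryr2 fell by 1.22 ± 0.34 (SE) on the log2 scale, with a limma adjusted p of 0.00683. As for Atp2a2, that SE rests mostly on the spread shared across genes (prior degrees of freedom 91.8). Leaving out 1 library ended the call in 3 of 6 fits (without young replicate 3, OH1 or OH2), with limma adjusted p values from 0.00129 to 0.0898 over the 6. Within suffix _1 the mean was 72.0 TPM in young and 21.7 TPM in old, and within suffix _2 it was 42.0 and 27.4 TPM.

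These 2 falls stood in a comparison in which most calls pointed the same way. On the deposited scale 47.7% of the 9502 tested genes passed the threshold and 46.8% passed as lower in old, while 54.2% had an old group wholly below the young group. The median gene had a log2 fold change of -0.53. Atp2a2 lay 0.45 below that median and Ryr2 0.69 below it. A lower log2 fold change than that of Atp2a2 was found for 492 genes (5.18%) and than that of Ryr2 for 145 genes (1.53%). A call in this direction was thus common on this scale, and the size of both changes lay in the lower tail of all genes on log2(TPM + 1). The distance to the median depended on this setting. With 0.1 added in place of 1, the median was -0.68, against -1.01 for Atp2a2 and -1.25 for Ryr2. With a filter at 10 TPM the median was also -0.68, against -0.99 and -1.22. The shares of genes with a lower value were not taken under these settings.

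**Figure D1:**
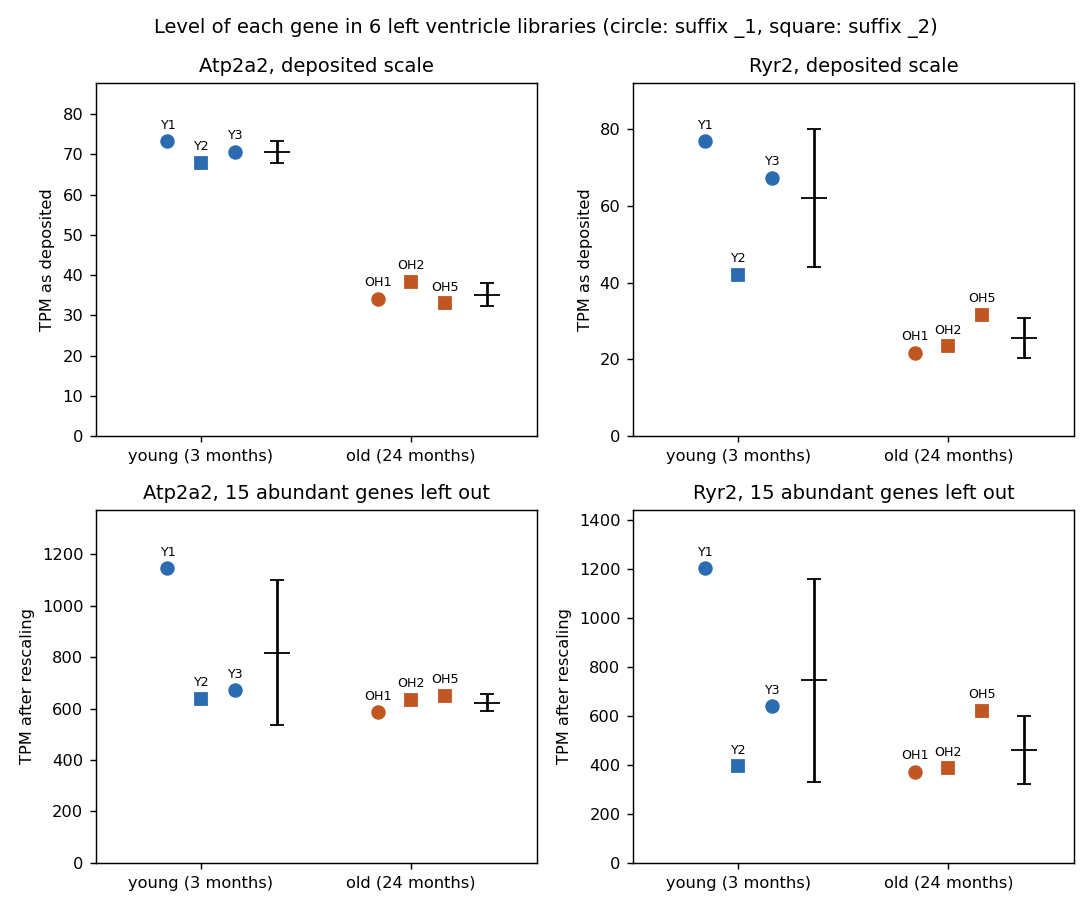
Level of Atp2a2 (left) and Ryr2 (right) in each of 6 libraries, in TPM as deposited (top) and in TPM after 15 abundant genes were left out (bottom), with the mean and SD of each age beside the points, circles for column suffix _1 and squares for _2. The ages are apart in the top panels, whereas in the bottom panels young replicate 1 (Y1) is high at 1146 for Atp2a2 and 1201 for Ryr2 and the other libraries overlap.

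Set against the other genes of the same library, Atp2a2 lay between 586 and 672 TPM in 5 of 6 libraries. Rescaled Atp2a2 was 1146, 638 and 672 TPM in young replicates 1, 2 and 3. In old ventricle it was 586 TPM in OH1, 634 TPM in OH2 and 649 TPM in OH5. Young replicate 1 alone was high, and OH5 lay above young replicate 2, so the groups overlapped. The mean was 818 ± 284 TPM at 3 months and 623 ± 33.2 TPM at 24 months (SD, n = 3), with an exact two-sided permutation p of 0.2. The rescaled log2 fold change was -0.34 ± 0.23 (SE), with a limma adjusted p of 0.401 over 9487 genes.

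Without young replicate 1, the young mean of rescaled Atp2a2 was 655 TPM, and old stood at 0.951 of it. The log2 fold change was then -0.07 with a limma adjusted p of 0.785, the highest of the 6 fits that left out 1 library. Within suffix _1, which holds young replicate 1, the mean was 909 TPM in young and 586 TPM in old. Within suffix _2 it was 638 TPM in young, which is 1 library, and 642 TPM in old, so the fall was not seen there.

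With the median tested gene of each library as the base in place of the sum, Atp2a2 was 23.0, 13.5 and 13.4 times that gene in young replicates 1, 2 and 3. It was 12.0 times the median gene in OH1, 13.3 times in OH2 and 13.4 times in OH5. On this measure the groups did not overlap (exact two-sided permutation p = 0.1), but the smallest gap, OH5 minus young replicate 3, was -0.016. Whether the ages overlap thus depended on the base. The share of all tested genes without overlap on this measure was not taken, so the separation is not read as particular to Atp2a2. The mean difference of old minus young was -3.73 times the median gene, and -0.54 without young replicate 1. For Ryr2 the ages overlapped on this measure, at 8.32 to 24.2 times the median gene in young and 7.61 to 12.8 times in old (exact two-sided permutation p = 0.3). Its mean difference was -5.57, and -1.04 without young replicate 1.

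Rescaled Ryr2 covered a wider range than Atp2a2 in both ages. The young values were 1201, 394 and 639 TPM in replicates 1, 2 and 3. The old values were 372 TPM in OH1, 386 TPM in OH2 and 620 TPM in OH5. Young replicate 1 was again the highest library, while young replicate 2 was near OH1 and OH2, and young replicate 3 near OH5. The mean was 745 ± 414 TPM at 3 months and 459 ± 139 TPM at 24 months (SD, n = 3), with an exact two-sided permutation p of 0.2. The log2 fold change was -0.59 ± 0.38 (SE), with a limma adjusted p of 0.393.

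Leaving out young replicate 1 brought the young mean of rescaled Ryr2 to 517 TPM, with old at 0.889 of it and a log2 fold change of -0.17 (limma adjusted p 0.783). Leaving out young replicate 2 instead gave -0.97 (limma adjusted p 0.137). The mean within suffix _1 was 920 TPM in young and 372 TPM in old (OH1 alone). Within suffix _2 it was 394 TPM in young (replicate 2 alone) and 503 TPM in old, higher in old. Neither gene passed the threshold after rescaling in any of the 6 fits without 1 library.

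After rescaling 6.07% of the 9487 tested genes passed the threshold and 3.42% passed as lower in old, and 18.4% had an old group wholly below the young group. Atp2a2 and Ryr2 were in neither set. The median log2 fold change was -0.04, with 14.1% of genes below Atp2a2 and 4.35% below Ryr2. A p that misses the threshold does not show that either gene was unchanged against the rest. Differences between 1 old and 1 young library ran from -0.97 to 0.02 on the log2 scale for Atp2a2 and from -1.69 to 0.65 for Ryr2. These are the lowest and highest of 9 pairs that share libraries, and not an interval for the mean difference.

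**Figure D2:**
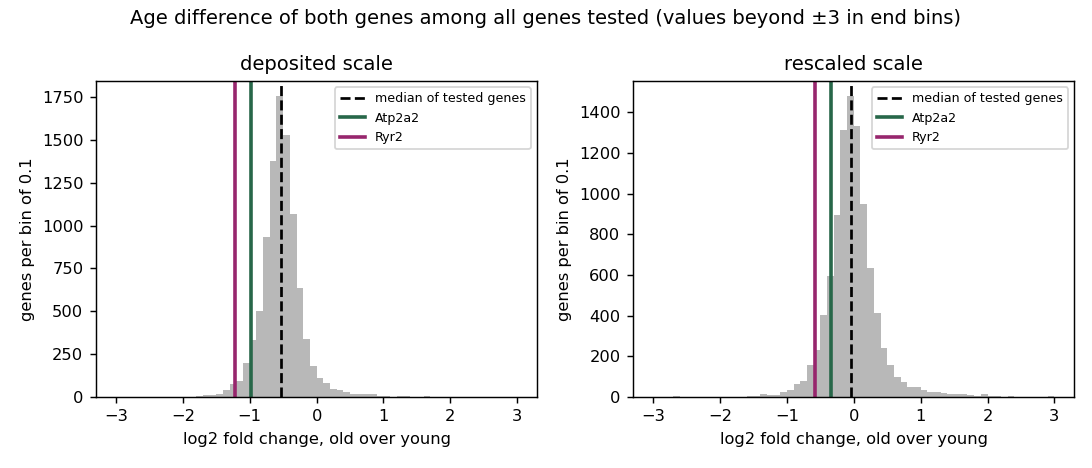
Histograms of the log2 fold change of old over young for all tested genes, as deposited (left, 9502 genes) and rescaled (right, 9487 genes), with a dashed line at the median and solid lines at Atp2a2 and Ryr2. Both genes lie to the left of the median on each scale, at -0.99 and -1.22 against -0.53 as deposited and at -0.34 and -0.59 against -0.04 rescaled.

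Rescaling widened the spread of the pump gene among young libraries, while it narrowed that of the median gene. On the deposited log2 scale the young SD of Atp2a2 was 0.053 against a median of 0.342 over tested genes, and 99.3% of genes had a larger one. After rescaling its young SD was 0.467 against a median of 0.179, and 6.58% of genes had a larger one. The 3 young values of Atp2a2 were thus close to each other as parts of the whole sum, and not as parts of the genes outside the abundant 15. In old libraries the SD was 0.11 as deposited and 0.078 rescaled. For Ryr2 the young SD was 0.449 as deposited and 0.805 rescaled, and 24.4% and 1.01% of genes had a larger one. Its old SD was 0.274 and 0.409, larger than the medians of 0.135 and 0.13.

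Rank within a library, which no scaling of a library alters, placed both genes among the most abundant of the 9487 genes. By mean TPM, Atp2a2 was 127th and Ryr2 185th. Atp2a2 held ranks 55, 168 and 134 in young replicates 1, 2 and 3, and ranks 183, 170 and 148 in OH1, OH2 and OH5. The ranks overlapped between ages (exact two-sided permutation p = 0.2), and without young replicate 1 the mean ranks were 151 in young and 167 in old. Ryr2 held ranks 49, 334 and 148 in the young libraries and 334, 332 and 159 in OH1, OH2 and OH5 (exact two-sided permutation p = 0.4). Young replicate 2 and OH1 gave Ryr2 the same rank.

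The ratio of pump to release channel RNA compares the 2 genes inside each library. Atp2a2 TPM divided by Ryr2 TPM was 0.954 in young replicate 1, 1.62 in young replicate 2 and 1.05 in young replicate 3. It was 1.57 in OH1, 1.64 in OH2 and 1.05 in OH5. The 6 ratios lay near 1 or near 1.6, and libraries of both ages were found at each level. The means were 1.21 ± 0.359 in young and 1.42 ± 0.325 in old (SD, n = 3).

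On the log2 scale the ratio was 0.25 higher in old, with an exact two-sided permutation p of 0.5, and the 9 pairs of libraries spanned -0.63 to 0.78. A difference in how far the 2 genes moved with age was therefore not resolved, in either direction, by these libraries. Within suffix _1 the log2 ratio was 0.65 higher in old (OH1 alone), and within suffix _2 the difference was -0.30 (young replicate 2 alone). The direction was thus not kept, with 1 library on 1 side of each difference. Leaving out 1 library gave 0.10 (without young replicate 1) to 0.48 (without young replicate 2).

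The sum of the 2 genes was 150, 110 and 138 TPM in young replicates 1, 2 and 3 and 55.9, 61.7 and 64.5 TPM in OH1, OH2 and OH5. Its young mean of 133 ± 20.6 TPM was 2.19-fold the old mean of 60.7 ± 4.37 TPM (SD, n = 3), and the exact two-sided permutation p was 0.1. The share of TPM outside the 15 abundant genes, given above, was 1.62-fold higher in young. Young replicate 1 had the highest sum of the 2 genes and the lowest young share. The part of this share in the result was not tested beyond the rescaling.

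**Figure D3:**
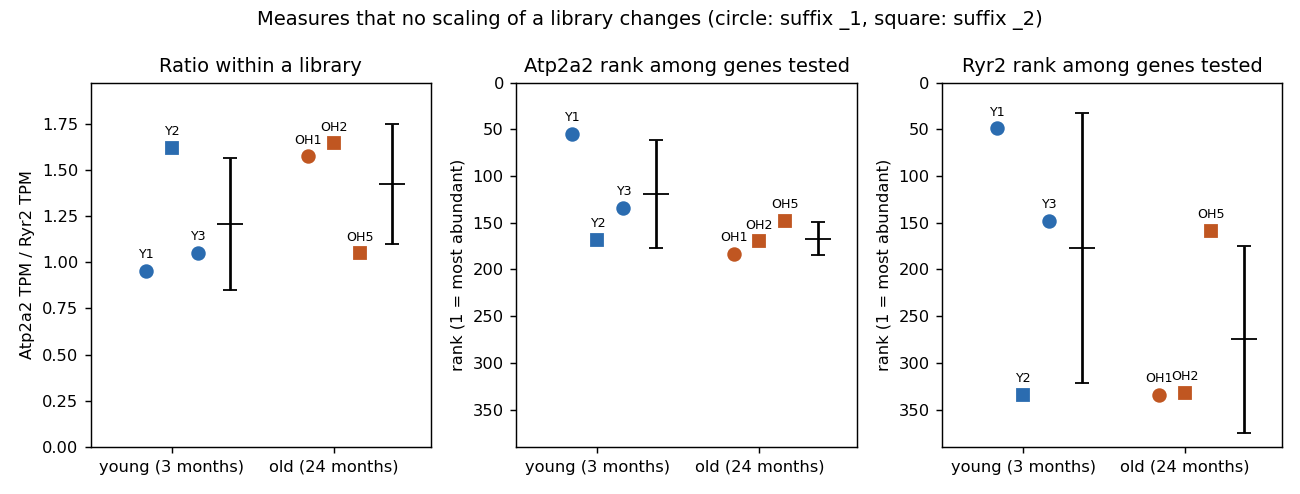
Atp2a2 TPM divided by Ryr2 TPM (left) and the rank of Atp2a2 (middle) and Ryr2 (right) among 9487 genes, with rank 1 the most abundant, for each library, with the mean and SD of each age and circles and squares for column suffixes _1 and _2. The ratio is near 1 in young replicates 1 and 3 and OH5 and near 1.6 in young replicate 2, OH1 and OH2, and the ages overlap in all 3 panels.

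The genes whose pattern over the 6 libraries was most like each member were found by Pearson correlation of rescaled log2 values, as a description over 6 libraries of 2 ages. The r between Atp2a2 and Ryr2 was 0.906, or 0.758 without young replicate 1 and 0.861 without young replicate 1 and OH1, the 2 libraries farthest from the median. Of 9486 genes, 3.86% were more like Atp2a2 than Ryr2 was, and 3.84% were more like Ryr2 than Atp2a2 was. With so few libraries high values are common: 140 genes had an r over 0.95 with Atp2a2 and 151 with Ryr2.

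The gene nearest to Ryr2 was ENSRNOG00000069271 (r = 0.995, and 0.983 without young replicate 1). It stood at 308, 168 and 269 TPM in young replicates 1, 2 and 3 and at 87.7, 86.3 and 114 TPM in OH1, OH2 and OH5. Its TPM divided by that of Ryr2 stayed between 3.63 and 4.03 in all 6 libraries, a range of 1.11-fold. This gene was picked as the most correlated of 9486 genes, so a like pattern was given by the choice. A high correlation does not by itself fix the range of the ratio. The second was ENSRNOG00000004831 (r = 0.993), whose ratio to Ryr2 ran from 0.101 to 0.253, so that a like pattern went with a smaller size of change.

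Nearest to Atp2a2 were ENSRNOG00000019490 (r = 0.997) and ENSRNOG00000003463 (r = 0.994). Without young replicate 1 and OH1 r was 0.887 and 0.618, and without young replicate 1 alone it was 0.966 and 0.874. ENSRNOG00000019490 was listed at 3.28, 2.5 and 2.81 TPM in the young libraries and 1.24, 1.48 and 1.3 TPM in OH1, OH2 and OH5, and its ratio to Atp2a2 had a range of 1.23-fold. The table pairs none of these identifiers with a name.

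**Figure D4:**
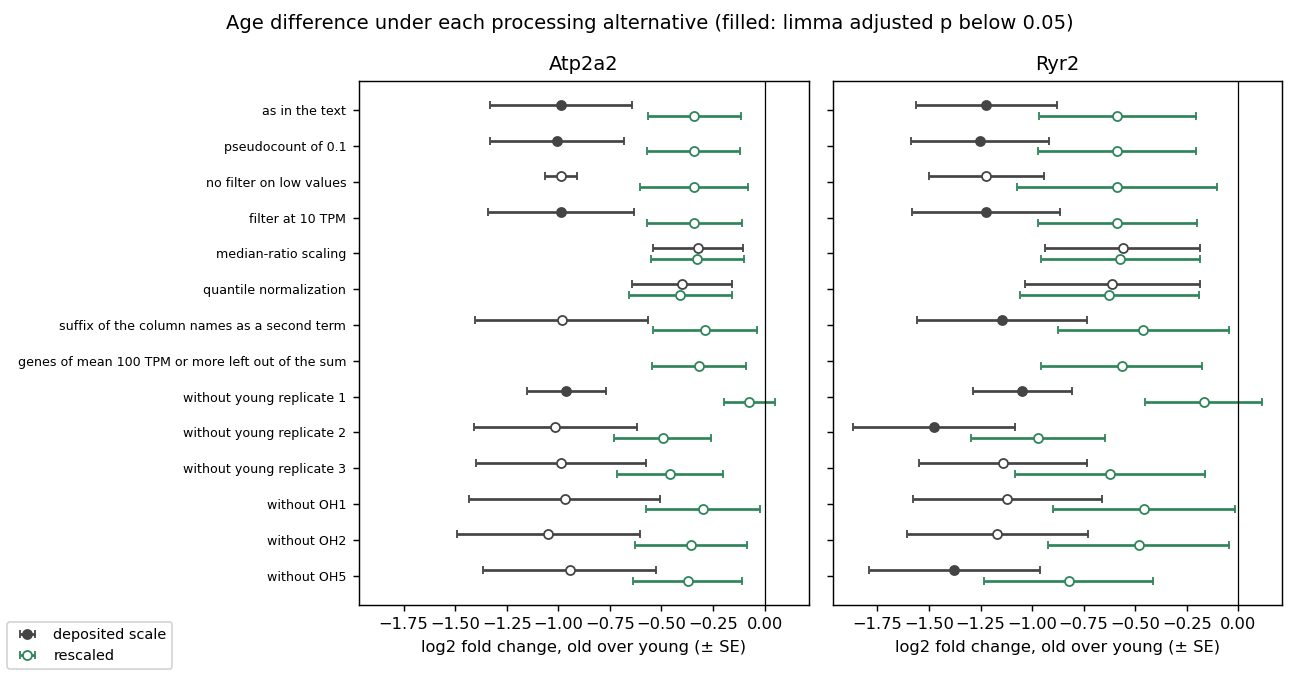
Log2 fold change of old over young with its SE for Atp2a2 (left) and Ryr2 (right) under each processing alternative, in grey from deposited and in green from rescaled values, filled where the limma adjusted p was below 0.05. All values are below 0, no rescaled value is filled, and the rescaled values without young replicate 1 are nearest to 0, at -0.07 for Atp2a2 and -0.17 for Ryr2.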

How the data were processed

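The authors deposited 1 table of TPM, with 1 column per library, made with Salmon and the genome build mRatBN7.2 per the submitters' processing notes. The annotation, the Salmon version and the step from transcripts to genes were not given in the sources used here. Rattus rattus is the species in the labels, while the strain and build belong to Rattus norvegicus. Young columns were matched by individual number to replicates 1, 2 and 3. Old columns carry numbers that do not match the labels one to one and were assigned to the old group only.

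Tests were limma-trend (limma 3.58.1, R 4.3.3) on log2(TPM + 1) for genes that reached 1 TPM in 3 or more libraries, with Benjamini-Hochberg adjustment over all genes and a threshold of 0.05, and exact two-sided permutation tests (scipy 1.17.1). The fit was also run on data simulated on the rescaled scale, with noise drawn independently for each gene and library. That run does not test the deposited scale or a shift shared by the genes of a library. Rescaling left out genes with a mean of 1000 TPM or more. The members and lists were chosen with earlier results of these data known. Genes were named as the 2 members and the 2 genes most correlated with each. Alternatives were a pseudocount of 0.1, no filter, a filter at 10 TPM, other scalings, the column suffix as a term and leaving out each library. Ranks and levels over the median gene were added after the data were seen. No sequence or coordinates are given, since no sequences were used here and the gene table is of another assembly.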

Additional observations from a re-analysis of the deposited data

How the results depend on the processing

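On the deposited scale (log2 fold change -0.99 for Atp2a2 and -1.22 for Ryr2, both past the threshold), neither gene passed with no filter on low values (values unchanged at -0.99 and -1.22, limma adjusted p 0.0521 and 0.089), with median-ratio scaling (-0.32 and -0.56) or with quantile normalization (-0.40 and -0.61). With the column suffix as a second term Atp2a2 did not pass (-0.98). Ryr2 passed with that term (-1.15), at a limma adjusted p of 0.0453, close to the threshold. Leaving out 1 library gave -1.05 to -0.94 for Atp2a2 and -1.48 to -1.05 for Ryr2. After rescaling, none of the 13 alternatives per gene changed a direction or passed the threshold, and leaving out 1 library gave -0.49 to -0.07 for Atp2a2 and -0.97 to -0.17 for Ryr2. The log2 ratio of Atp2a2 to Ryr2 (0.25) was -0.30 within suffix _2 and kept its direction in the other 9 alternatives, 0.10 to 0.48 without 1 library. The cause of these changes was not tested, except that both scalings bring the median change of all genes near 0. With no filter, and adjustment over 23976 genes, the unadjusted limma p of Atp2a2 was lower than in the main fit (6.4e-05 against 0.0049). That of Ryr2 was higher (0.0077 against 0.00056). The calls over all genes on the deposited scale (4533) were 1 with no filter (6462 at an unadjusted p below 0.05), 607 with a filter at 10 TPM (1422 genes tested), 581 and 574 with the 2 scalings, 1385 with the suffix term and 388 (without OH5) to 8857 (without young replicate 1) without 1 library. Rescaled, they were 576, and 6, 128 and 174 with no filter, the filter at 10 TPM and the suffix term, and 67 (without OH1) to 453 without 1 library. No paired analysis was possible because the old columns could not be matched to replicate numbers of the labels. The labels also state no pairing of a young with an old library, so such a match would not by itself have given a paired design. TPM keeps no read depth, so the limits that depth sets could not be given.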
